A study of Caenorhabditis elegans with 15 samples.

Results

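The comparison was that of adult day 1 Caenorhabditis elegans exposed to silver nanoparticles at 10 µg/ml, called Ag worms, with unexposed worms at 0 µg/ml, called Control worms. It used 10 of the 15 samples of the series, 5 Ag samples (replicates 6 to 10) and 5 Control samples (replicates 1 to 5), and the members were the 18993 of 46778 genes in the count table with a total of at least 10 counts over these 10 samples. All worms were of the wild type strain N2, grown as synchronized larvae with Escherichia coli OP50 as food, and RNA was taken from whole worms, so each value is an average over every tissue and over the eggs that the adults hold. In such samples fewer cells of a type and less RNA per cell cannot be told apart. The study's methods place the larvae in the particles from the first larval stage until day 1 of adulthood, whereas the sample labels describe the incubation at the adult stage, so the length of exposure cannot be fixed from these descriptions. The remaining 5 samples came from worms given particles of silicon dioxide (SiO2), also at 10 µg/ml. They were used where a gene is compared directly between Ag and SiO2 worms, and in an alternative fit with all 15 samples. In the direct comparison of Ag with SiO2 worms, which shares the Ag samples, 3.43% of genes differed by the same test.

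Silver nanoparticles shed silver ions in water, and silver binds the sulfur of cysteine, which is why metallothioneins, small cysteine-rich metal-binding proteins, and the enzymes that make cysteine and glutathione are the genes usually looked at first after silver. In a worm eating bacteria the intestine meets the particles first, and it is also the organ that stores fat, makes yolk and mounts most detoxification and antimicrobial responses. A day 1 adult hermaphrodite carries a large germ line and developing embryos, so whole worm RNA also follows egg and embryo content.

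The total count per sample was 16560734 to 21504825 (median 19097708) in the Ag samples and 17693844 to 23678845 (median 19556340) in the Control samples. Values are CPM, counts scaled to a common library total and adjusted by TMM, a correction for differences in RNA composition, and a gene is said to have changed, or to have been called, at an adjusted p under 0.05 in edgeR's quasi-likelihood test with Benjamini-Hochberg adjustment over all 18993 genes. No pair of samples held identical counts. The study's methods describe separate wells for the worms, with more repeats of each condition than the samples used here, and the labels do not tie a sample to a well, so p-values measure the spread between these samples, part of which may be technical. Of the markers fixed for tissues, the 6 of germ line and oocytes summed to 1457 to 2518 CPM in Ag worms and 924 to 1710 CPM in Control worms, the 4 embryo markers tested to 3.15 to 7.20 CPM in Ag worms and 6.32 to 8.91 CPM in Control worms, and the 6 intestinal markers to 7629 to 13450 CPM in Ag worms and 10260 to 14510 CPM in Control worms. Neuronal, pharyngeal, muscle and hypodermal markers were all detected, and in each of these 4 tissues 1 marker was called lower, unc-119, pha-4, hlh-1 and elt-1, none of them in all fits that leave out a sample. The 5 pharyngeal markers summed to 339 to 473 CPM in Ag worms and 433 to 941 CPM in Control worms.

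Ag worms had 878 genes higher and 827 genes lower than Control worms, which is 4.62% and 4.35% of the genes tested, or 8.98% in all. Most changes were modest. The median absolute log2 fold change of the 1705 called genes was 0.62, and 213 higher and 150 lower genes changed at least 2-fold, together 1.91% of those tested. At least 4-fold changes were found in 34 higher and 18 lower genes. In 1234 of the called genes no Ag sample overlapped any Control sample, a separation that 10.1% of all genes tested showed. The median log2 fold change over all genes was -0.02. The count of calls depended on the Control samples: leaving out Control replicate 2, 3 or 4 left 391, 368 and 507 called genes, and leaving out Ag replicate 7, 9 or 10 left 880, 745 and 970. Of the 1705 called genes, 327 were called in each of the 10 fits that leave out 1 sample, and 1378 lost the call in at least 1 of them. The 20 genes chosen by rule for a full description, 10 higher and 10 lower, remained called under each of these omissions and under every other setting tried. The rule asked for groups without overlap and at least 2-fold change, so neither trait is added evidence for these genes.

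**Figure D1:**
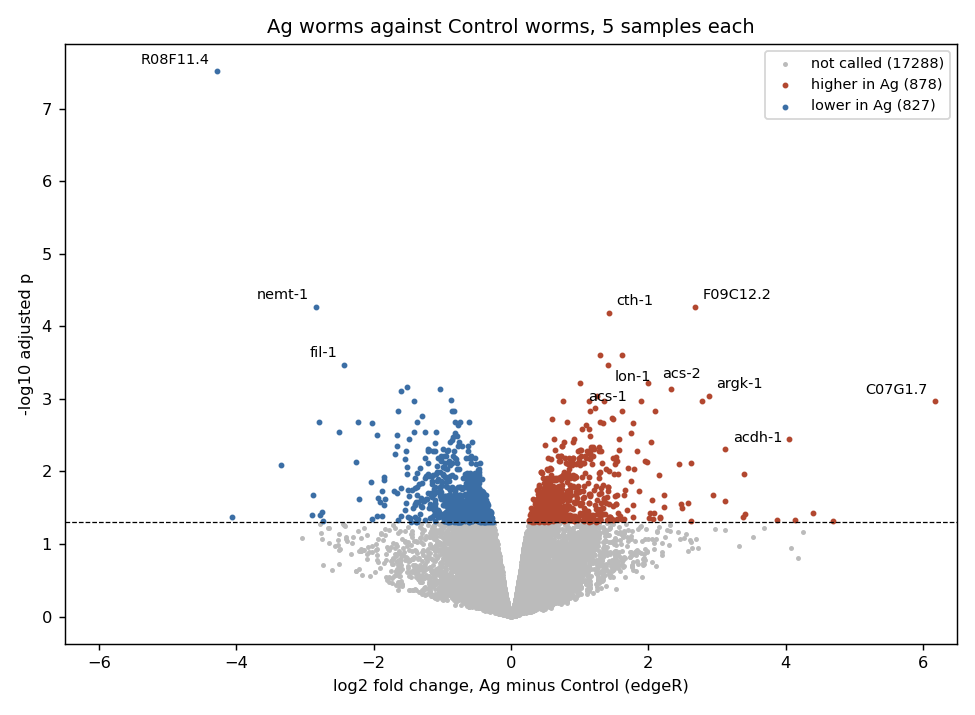
Volcano plot of the 18993 genes, with the edgeR log2 fold change (Ag minus Control) on the x axis and -log10 of the adjusted p on the y axis, red for the 878 genes higher in Ag, blue for the 827 lower and grey for genes not called, with the dashed line at an adjusted p of 0.05. R08F11.4 stands alone at the top left with a log2 fold change of -4.29, and F09C12.2 and cth-1 lead the genes higher in Ag.

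The genes with the firmest increases included enzymes of sulfur and energy metabolism and a pair of kinases. cth-1, which encodes a cystathionine gamma-lyase that releases cysteine in the last step of transsulfuration, had 39.4, 53.7, 36.2, 42.7 and 36.9 CPM in Ag worms, against 13.8, 15.9, 17.1, 16.4 and 14.4 CPM in Control worms. Every Ag sample was above every Control sample by a wide margin, and the increase was 2.69-fold (log2 fold change 1.43 ± 0.12, SE, edgeR adjusted p = 6.43e-05). The next gene on the same strand of chromosome V, argk-1, lies 1143 bases from cth-1 with no tested gene between them. argk-1 encodes an arginine kinase, which stores high-energy phosphate as phosphoarginine, and had 5.75, 11.9, 4.04, 6.79 and 4.93 CPM in Ag worms, against 0.946, 0.661, 0.875, 1.54 and 0.404 CPM in Control worms (7.38-fold higher, log2 fold change 2.88 ± 0.35, SE, edgeR adjusted p = 0.000899). Both genes also differed directly between the exposures, with log2 differences from SiO2 worms of 1.28 ± 0.13 for cth-1 and 2.99 ± 0.33 for argk-1 (SE, edgeR adjusted p = 1.5e-05 and 4.18e-05).

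F09C12.2 and its neighbour mpk-2, a mitogen-activated protein kinase gene, lie side by side on chromosome II. F09C12.2 had 24.5, 20.9, 16.5, 13.9 and 12.1 CPM in Ag worms, against 4.03, 2.15, 2.35, 2.56 and 2.60 CPM in Control worms (log2 fold change 2.68 ± 0.23, SE, edgeR adjusted p = 5.34e-05). mpk-2 had 113, 100, 103, 78.1 and 70.9 CPM in Ag worms, against 41.9, 34.3, 35.2, 40.0 and 39.3 CPM in Control worms (log2 fold change 1.29 ± 0.13, SE, edgeR adjusted p = 0.000247). The groups were apart for both genes, and the next gene along, F09C12.8, was 2.94-fold higher as well (edgeR adjusted p = 0.0107), which made a run of 3 neighbouring called genes. A second such run was the F18E3 trio of small genes on chromosome V. F18E3.11 averaged 6.39 ± 2.18 CPM in Ag worms and 1.60 ± 0.11 CPM in Control worms, F18E3.12 averaged 2.59 ± 0.61 CPM in Ag worms and 0.585 ± 0.231 CPM in Control worms, and F18E3.13 averaged 13.9 ± 2.04 CPM in Ag worms and 4.53 ± 0.86 CPM in Control worms (SD, n = 5 each). The 3 genes were 3.97-fold, 4.29-fold and 3.06-fold higher in Ag worms, but their differences from SiO2 worms did not pass the test (edgeR adjusted p = 0.35 for F18E3.11, 0.396 for F18E3.12 and 0.0736 for F18E3.13).

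lon-1, which encodes a secreted protein of the epidermis that limits body length downstream of the Sma/Mab branch of TGF-beta signalling, had 109, 105, 83.3, 83.6 and 71.6 CPM in Ag worms, against 28.7, 35.2, 39.4, 40.8 and 26.7 CPM in Control worms (2.65-fold higher, log2 fold change 1.41 ± 0.15, SE, edgeR adjusted p = 0.000336). Y37H2A.14 had 50.97, 59.9, 66.0, 41.8 and 35.4 CPM in Ag worms, against 22.2, 21.1, 22.5, 19.9 and 20.9 CPM in Control worms (2.38-fold higher, edgeR adjusted p = 0.000899). The Control samples of Y37H2A.14 lay within a narrow band, below the lowest Ag sample. Both genes were higher in Ag than in SiO2 worms when compared directly (log2 difference 1.07 ± 0.15 for lon-1 and 1.38 ± 0.14 for Y37H2A.14, SE, edgeR adjusted p = 0.000331 and 1.56e-05).

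The firmest decrease was in R08F11.4 on chromosome V. R08F11.4 had 1.27, 0.974, 0.746, 0.597 and 0.851 CPM in Ag worms, against 21.3, 16.7, 15.0, 17.6 and 17.8 CPM in Control worms, a 19.5-fold decrease (log2 fold change -4.29 ± 0.19, SE, edgeR adjusted p = 3.03e-08). It stayed detectable in all Ag samples, with at least 11 counts in each, and was as far below SiO2 worms (log2 difference -4.34 ± 0.21, SE, edgeR adjusted p = 6.82e-10). nemt-1 had 3.89, 5.61, 2.18, 2.34 and 3.57 CPM in Ag worms, against 22.7, 25.6, 25.7, 33.2 and 19.9 CPM in Control worms (7.15-fold lower, log2 fold change -2.84 ± 0.23, SE, edgeR adjusted p = 5.34e-05). nemt-1 overlaps rpn-7 and F49C12.11 on the other strand, and whether the reads were counted by strand is not given in the sources used here, so their counts may not be fully separate.

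fil-1 and fil-2 are known as lipases induced by fasting. fil-1 had 76.3, 58.2, 46.8, 39.9 and 42.2 CPM in Ag worms, against 276, 314, 239, 442 and 148 CPM in Control worms (5.38-fold lower, log2 fold change -2.43 ± 0.25, SE, edgeR adjusted p = 0.000336). fil-2 had 10.0, 7.65, 10.2, 6.84 and 6.18 CPM in Ag worms, against 23.5, 27.7, 22.6, 43.2 and 12.5 CPM in Control worms (3.17-fold lower, edgeR adjusted p = 0.00439). In both genes Control replicate 4 was the highest sample and Control replicate 5 the lowest of its group, still above every Ag sample. Another lipase gene, lips-10, was also lower (log2 fold change -0.96, edgeR adjusted p = 0.0235, not called without Ag replicate 9 or 10 or Control replicate 2, 3 or 4), and none of the 21 lipase genes tested was higher by edgeR, by DESeq2 or at an unadjusted p under 0.05.

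col-135, a cuticle collagen gene, averaged 107 ± 12.0 CPM in Ag worms and 219 ± 34.4 CPM in Control worms (SD, n = 5 each, edgeR adjusted p = 0.00073). The lectin genes clec-72 and clec-169, of a family of sugar-binding proteins with many members induced by bacteria, averaged 8.94 ± 0.86 CPM and 1.37 ± 0.34 CPM in Ag worms and 23.9 ± 7.49 CPM and 4.24 ± 0.88 CPM in Control worms (SD, n = 5 each, edgeR adjusted p = 0.00108 and 0.00145). The other named genes with the firmest decreases, F01D5.1, the pseudogene WBGene00018448, K05F6.4 and F59D6.1, had log2 fold changes of -1.51, -1.60, -1.29 and -1.38.

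**Figure D2:**
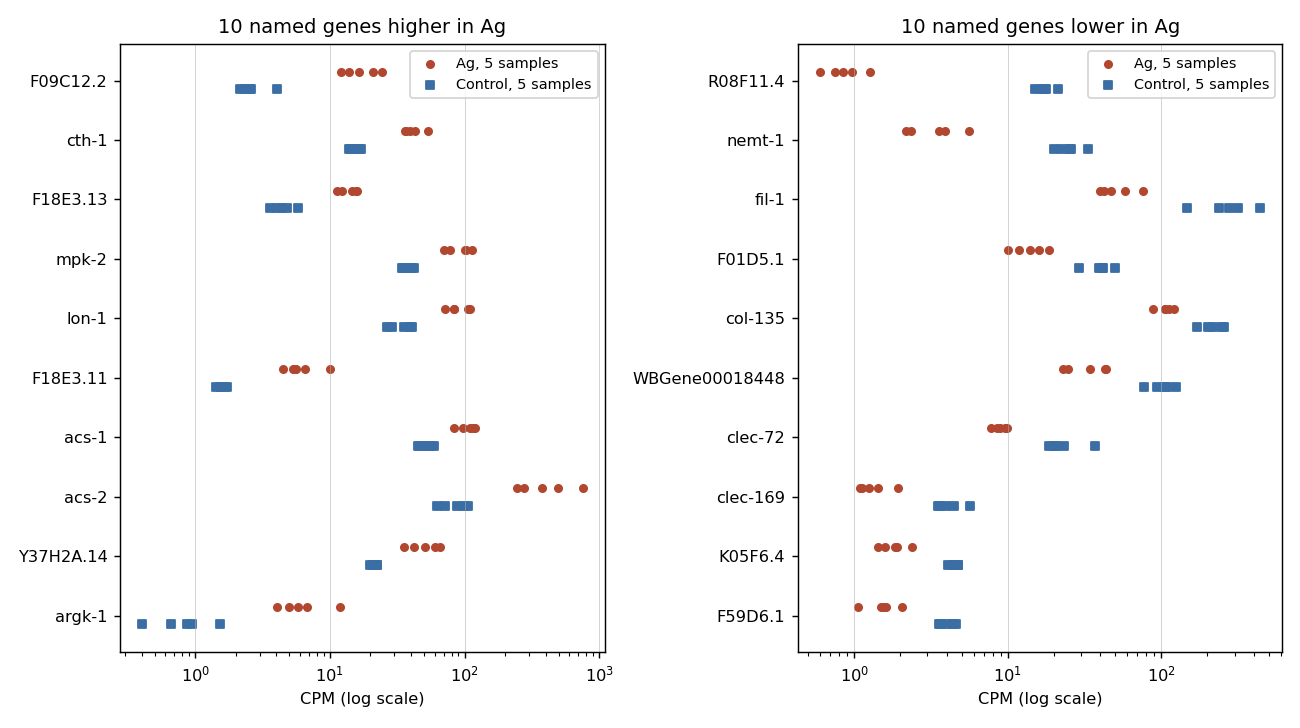
CPM on a log scale for the 10 named genes higher in Ag (left) and the 10 lower in Ag (right), each gene on its own row with the 5 Ag samples as red circles above the 5 Control samples as blue squares. The genes were chosen among those without overlap between the groups, and the widest gap is that of R08F11.4, with 0.597 to 1.27 CPM in Ag worms and 15.0 to 21.3 CPM in Control worms.

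Fat metabolism moved in more than one direction. While the fil lipases fell, 9 of the 59 genes for acyl-CoA synthetases and fatty acid oxidation rose and 3 fell, against 4.62% and 4.35% of all genes. acs-2, a mitochondrial acyl-CoA synthetase that feeds fatty acids into beta-oxidation and is known to rise on fasting, had 279, 245, 756, 497 and 378 CPM in Ag worms, against 99.7, 62.1, 71.3, 107 and 87.2 CPM in Control worms (5.04-fold higher, log2 fold change 2.33 ± 0.27, SE, edgeR adjusted p = 0.000734). Its highest value was in Ag replicate 8, and without that sample it was still called. hacd-1, for a hydroxyacyl-CoA dehydrogenase, averaged 495 ± 90.2 CPM in Ag worms and 203 ± 70.1 CPM in Control worms, and ech-7, for an enoyl-CoA hydratase, averaged 167 CPM in Ag worms and 74.8 CPM in Control worms (edgeR adjusted p = 0.00462 and 0.00683). acs-19, whose product makes acetyl-CoA from acetate, had 805, 753, 1504, 1354 and 1086 CPM in Ag worms, against 699, 276, 312, 296 and 637 CPM in Control worms, a 2.48-fold increase whose call was lost without Control replicate 3 (edgeR adjusted p = 0.0169 with all samples and 0.0534 without it). The 3 lower members were ech-9, cpt-4 and acs-3, with log2 fold changes of -0.82, -0.40 and -0.52, and leaving out Ag replicate 8, 9 or 10 or Control replicate 2, 3 or 4 left 1 of them called.

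acdh-1 had the largest log2 fold change among the called genes of this list. It encodes an acyl-CoA dehydrogenase that starts the propionate shunt, a route worms use to break down propionate when the vitamin B12 dependent route is short of its cofactor. acdh-1 had 25.9, 21.98, 50.1, 60.9 and 32.8 CPM in Ag worms, against 11.2, 1.32, 2.26, 1.45 and 5.88 CPM in Control worms (8.71-fold higher, log2 fold change 3.12 ± 0.50, SE, edgeR adjusted p = 0.0049). The Control samples spread over a wide range, with replicates 1 and 5 well above the other 3. Of the shunt's 5 enzyme genes, a list drawn up after the values were seen, acdh-1, ech-6, hphd-1 and hach-1 were higher, the last 3 by 0.49, 0.60 and 0.41 on the log2 scale, and alh-8 averaged 1076 ± 229 CPM in Ag worms and 1256 ± 160 CPM in Control worms (SD, n = 5 each, edgeR adjusted p = 0.248). Of the 7 genes of the B12 dependent route, likewise listed after the values were seen, none was called by edgeR, while DESeq2 called 2 higher, and at an unadjusted p under 0.05 edgeR had 2 higher and 1 lower. nhr-68, a nuclear receptor known to switch the shunt on, had a log2 fold change of 0.39 ± 0.11 (SE, edgeR adjusted p = 0.044), and 8 of the 10 fits that leave out a sample lost that call. The 4 called shunt genes fell to 1 without Control replicate 2 or 3 and to 2 without Control replicate 1 or 4 or Ag replicate 8, 9 or 10. acdh-2, a second acyl-CoA dehydrogenase gene, averaged 1.88 ± 0.65 CPM in Ag worms and 0.271 ± 0.105 CPM in Control worms (6.84-fold higher, edgeR adjusted p = 0.00108), and it overlaps ins-13 on the same strand.

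Among the genes that build fatty acids the called ones were higher. Of 16 desaturase and elongase genes, 6 were higher (elo-5, fat-5, elo-2, elo-6, elo-1 and fat-1) and none was lower by edgeR or by DESeq2, with 2 lower at an unadjusted p under 0.05. elo-5 and elo-6 elongate the branched-chain fatty acids that worms need to grow, and acs-1 activates them. acs-1 had 84.2, 97.5, 109.2, 118.6 and 114.7 CPM in Ag worms, against 45.4, 53.3, 55.3, 59.4 and 46.6 CPM in Control worms (2.01-fold higher, log2 fold change 1.01 ± 0.11, SE, edgeR adjusted p = 0.000598). elo-5 had 372, 353, 461, 396 and 353 CPM in Ag worms, against 239, 129, 135, 82.8 and 196 CPM in Control worms (2.48-fold higher, edgeR adjusted p = 0.00515). elo-6 averaged 727 ± 62.9 CPM in Ag worms and 421 ± 160 CPM in Control worms (SD, n = 5 each, edgeR adjusted p = 0.0335), with Control replicate 1 inside the Ag range. fat-5, a desaturase that acts on palmitic acid, had 29.1, 29.8, 12.6, 23.6 and 27.9 CPM in Ag worms, against 8.36, 9.42, 9.67, 13.8 and 9.40 CPM in Control worms, so that Ag replicate 8 fell below Control replicate 4 (edgeR adjusted p = 0.00515). Leaving out Ag replicate 9 or Control replicate 2, 3 or 4 left 3 of the 6 called, and elo-5, fat-5 and elo-2 were called whichever sample was left out. Among transport genes of the same tissue, aqp-1, an aquaporin of the intestine, had 123, 108, 251.7, 187 and 147 CPM in Ag worms, against 77.3, 36.4, 37.5, 34.8 and 58.1 CPM in Control worms (3.34-fold higher, edgeR adjusted p = 0.00294). Of the 6 intestinal markers none was called by edgeR or by DESeq2, with 1 higher and 2 lower at an unadjusted p under 0.05.

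Metal and sulfur genes changed in parts. mtl-2, an intestinal metallothionein gene, had 192, 174, 315, 172 and 179 CPM in Ag worms, against 142, 144, 133, 109 and 126 CPM in Control worms (1.58-fold higher, log2 fold change 0.66 ± 0.16, SE, edgeR adjusted p = 0.0261). All Ag samples were above all Control samples, yet the call was lost without Control replicate 2, 3 or 4 (adjusted p up to 0.069) and with the Kallisto estimates. mtl-1, the other metallothionein gene, had 124, 92.6, 150, 72.3 and 77.0 CPM in Ag worms, against 141, 147, 138, 91.5 and 117 CPM in Control worms, and the groups overlapped (log2 fold change -0.29 ± 0.19, SE, edgeR adjusted p = 0.291). pcs-1, which makes metal-binding phytochelatins, rose by 0.43 on the log2 scale and cdr-7, of a family first found as cadmium-responsive, fell by 0.73 on the log2 scale (edgeR adjusted p = 0.036 and 0.0217). Of these, neither was called without Control replicate 2, 3 or 4, pcs-1 was not called without Ag replicate 7, 9 or 10 either, and of the 10 metal stress genes tested the remaining 7, mtl-1 included, did not pass.

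ftn-1, a ferritin gene whose level follows iron, had 36.2, 35.6, 61.4, 36.8 and 40.5 CPM in Ag worms, against 91.3, 87.8, 74.9, 59.5 and 78.9 CPM in Control worms (1.87-fold lower, log2 fold change -0.90 ± 0.16, SE, edgeR adjusted p = 0.00707). Only Ag replicate 8 reached the Control range. Of the 25 metal transport and storage genes, ftn-1 was the one lower and zipt-7.1, a zinc transporter, the one higher (log2 fold change 0.81, edgeR adjusted p = 0.0113). That is 8.0% called, near the 8.98% of all genes. In the list of 20 transsulfuration and sulfide genes, cth-1 and mpst-1, for a sulfurtransferase, were higher, and cbs-1 and egl-9, for an oxygen-sensing prolyl hydroxylase, were lower. The call of mpst-1 was lost without Ag replicate 7, 9 or 10 or Control replicate 2, 3 or 4, and that of egl-9 without Control replicate 3. cbs-1 encodes the cystathionine beta-synthase that acts before cth-1 and averaged 69.6 ± 11.0 CPM in Ag worms and 98.3 ± 5.30 CPM in Control worms (log2 fold change -0.50 ± 0.11, SE, edgeR adjusted p = 0.0165), although without Ag replicate 7 its adjusted p was 0.0514.

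Detoxification and antioxidant families differed in the share called, against 8.98% of all genes. It was 13.0% for cytochrome P450, 8.96% for UDP-glucuronosyltransferase, 4.08% for glutathione and 9.68% for superoxide and peroxide enzyme genes. Of 69 cytochrome P450 genes, 5 were higher and 4 lower, of 67 UDP-glucuronosyltransferase genes 5 were higher and 1 lower, of 49 glutathione transferase and synthesis genes 1 was higher and 1 lower, and of 31 superoxide and peroxide enzyme genes 3 were higher and none lower by edgeR, with 1 lower by DESeq2 and 1 at an unadjusted p under 0.05. The P450 genes did not move as a unit. cyp-13B1 and cyp-14A1 were higher, at 9.27 and 3.11 CPM in Ag worms and 4.01 and 1.04 CPM in Control worms, cyp-34A9 was lower (log2 fold change -1.21), and cyp-31A2, cyp-31A3 and cyp-31A5, close relatives of which cyp-31A2 and cyp-31A3 are known for making the lipid layer of the eggshell, were higher by 0.71, 0.62 and 0.70 on the log2 scale. Without Control replicate 2, 3 or 4, or Ag replicate 9, the higher P450 genes fell to 2, and the higher UDP-glucuronosyltransferase genes fell to 0, 0, 1 and 2 in the same order. The higher P450 genes numbered 3 without Ag replicate 10 and the lower ones 8, 2, 1 and 2 without Ag replicate 8 or 9 or Control replicate 2 or 3, while cyp-13B1, cyp-14A1 and cyp-34A9 were called throughout. Higher UDP-glucuronosyltransferase genes numbered 3 without Ag replicate 7, and of the 3 antioxidant genes 1 or none was called without Control replicate 1, 2, 3 or 4 or Ag replicate 7, 9 or 10.

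Mitochondrial chaperones rose and a pair of chaperones of the endoplasmic reticulum fell. hsp-6, the mitochondrial Hsp70 gene used as a reporter of the mitochondrial unfolded protein response, had 485, 524, 548, 725 and 613 CPM in Ag worms, against 306, 302, 313, 377 and 395 CPM in Control worms (1.71-fold higher, log2 fold change 0.77 ± 0.12, SE, edgeR adjusted p = 0.00392). hsp-60, the mitochondrial chaperonin gene, had 164, 146, 121, 159 and 164 CPM in Ag worms, against 88.8, 73.3, 88.5, 115 and 99.5 CPM in Control worms (1.62-fold higher, edgeR adjusted p = 0.00712). Both sets of samples were apart, and both calls held whichever sample was left out. In a list of 21 mitochondrial stress and import genes put together after these values were seen, 10 were higher, among them atfs-1, the transcription factor that governs the response (log2 fold change 0.37), timm-23 and tomm-40, pores of the inner and outer membrane (0.49 and 0.33), and the protease gene lonp-1 (0.45). dve-1, another regulator of that response, was the one lower member (-0.40). Leaving out Ag replicate 9 or 10 or Control replicate 2, 3 or 4 left 4 called, and leaving out Ag replicate 7 left 6. timm-23 was called in each of the 10 fits, whereas atfs-1, tomm-40 and lonp-1 were called in 3 of them. Of the 51 housekeeping chaperones hsp-6, hsp-60, dnj-26 and dnj-4 were higher, dnj-26 and dnj-4 by 0.49 and 0.44 on the log2 scale. pdi-2 and dnj-27, both of the endoplasmic reticulum, were lower (log2 fold changes -0.53 and -0.50), and the other members did not pass. That is 11.8% called, against 8.98% of all genes. Without Ag replicate 7, 9 or 10 or Control replicate 2, 3 or 4 the 4 higher became 2. Of the 13 small and inducible heat shock genes hsp-17 and hsp-25 were higher (1.03 and 0.38, 15.4% called), and the others did not pass. Among these 13 none was lower by edgeR, with 1 lower by DESeq2 and 2 at an unadjusted p under 0.05. The calls of dnj-27 and hsp-25 were lost without Ag replicate 7 or Control replicate 2 or 3, and that of dnj-27 also without Control replicate 4.

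Genes of infection and gut defence went both ways. Of 182 C-type lectin genes, 14 were lower and 3 higher, near the background of 8.98% in all, with clec-174 and clec-66 next after the 2 named above (log2 fold changes -1.42 and -0.84). The lower lectins numbered 6, 8 and 7 without Control replicate 2, 3 or 4 and 9 and 8 without Ag replicate 7 or 10. lys-3, a lysozyme gene, had 18.02, 21.9, 26.4, 15.4 and 16.4 CPM in Ag worms, against 8.31, 9.98, 8.89, 8.44 and 8.59 CPM in Control worms (2.22-fold higher, edgeR adjusted p = 0.00145). lys-7, a lysozyme gene under insulin signalling, had 494, 282, 400, 262 and 354 CPM in Ag worms, against 715, 739, 422, 569 and 581 CPM in Control worms (1.69-fold lower, edgeR adjusted p = 0.0247). The lysozymes thus split, lys-3 with separate groups and lys-7 with groups that overlapped, and the other 12 tested did not pass. The lys-7 call was lost without Ag replicate 7 or 9 or Control replicate 2 or 4. Of 18 CUB-like and infection response genes 4 were higher, with dod-19 (log2 fold change 0.89) and irg-6 (1.66) foremost, and 2 were lower, dod-3 and irg-4 (-0.59 and -0.95). Without Control replicate 2, 3 or 4 or Ag replicate 9, those 4 higher calls fell to 1, 1, 2 and 2.

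Genes of the ubiquitin ligase machinery divided by family. Skp1-related genes encode the adaptor that joins F-box proteins to cullin, and 7 of 19 were lower and 1, skr-17, was higher, called in 3 of the 10 fits that leave out a sample. skr-8 had 9.69, 8.72, 12.9, 13.0 and 14.0 CPM in Ag worms, against 22.1, 20.2, 21.1, 20.9 and 23.9 CPM in Control worms (1.86-fold lower, log2 fold change -0.89 ± 0.14, SE, edgeR adjusted p = 0.00392). The 7 lower members, skr-7, skr-8, skr-9, skr-10, skr-12, skr-13 and skr-14, had log2 fold changes from -0.98 to -0.84 and are close copies of each other, so reads may be shared among them. At least 7 Skp1-related genes were lower whichever sample was left out. F-box B genes, whose products carry the partner domain of Skp1, were lower in 33 of 100 cases and higher in none by edgeR, by DESeq2 or at an unadjusted p under 0.05, a family singled out after its values were seen. The median log2 fold change of the F-box B genes was -0.65, and fbxb-17, fbxb-103 and fbxb-84 are examples, at 2.58, 2.55 and 4.55 CPM in Ag worms and 6.14, 5.87 and 8.22 CPM in Control worms. The median F-box B gene was lower than the Control mean by 0.97 and 0.95 log2 units in Ag replicates 6 and 7 but only by 0.30 and 0.32 in Ag replicates 9 and 10, so the decrease varied among the Ag samples. The 33 fell to 10, 10 and 12 without Control replicate 2, 3 or 4, to 19 without Control replicate 1, and to 19 and 13 without Ag replicate 6 or 7. F-box A genes did not share it, with 4 higher and 5 lower of 153. At most 4 were higher and 8 lower whichever sample was left out. The share called was 5.88% for F-box A genes and 42.1% for Skp1-related genes, against 8.98% of all genes. Of all genes 4.35% were lower, beside the 33 of 100 F-box B genes.

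MATH and BTB domain genes, whose products serve as substrate adaptors of a different cullin, moved up, with 14 of 67 higher and 3 lower. bath-19 averaged 4.19 CPM in Ag worms and 1.89 CPM in Control worms, and bath-1 averaged 8.77 CPM in Ag worms and 4.82 CPM in Control worms (edgeR adjusted p = 0.00542 and 0.0115). The lower members were math-42, bath-31 and bath-9 (log2 fold changes -0.61, -0.97 and -0.51). Of the 67 genes, 55 lie on chromosome II, where 13 of the higher and all 3 lower calls were found, and copies of this family can share reads. Without Control replicate 2, 3 or 4 the 14 fell to 3, 4 and 5, and without Ag replicate 7, 9 or 10 to 9, 7 and 9. The 3 lower became 0 without Ag replicate 7 or Control replicate 2 or 3 and 1 without Control replicate 4.

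**Figure D3:**
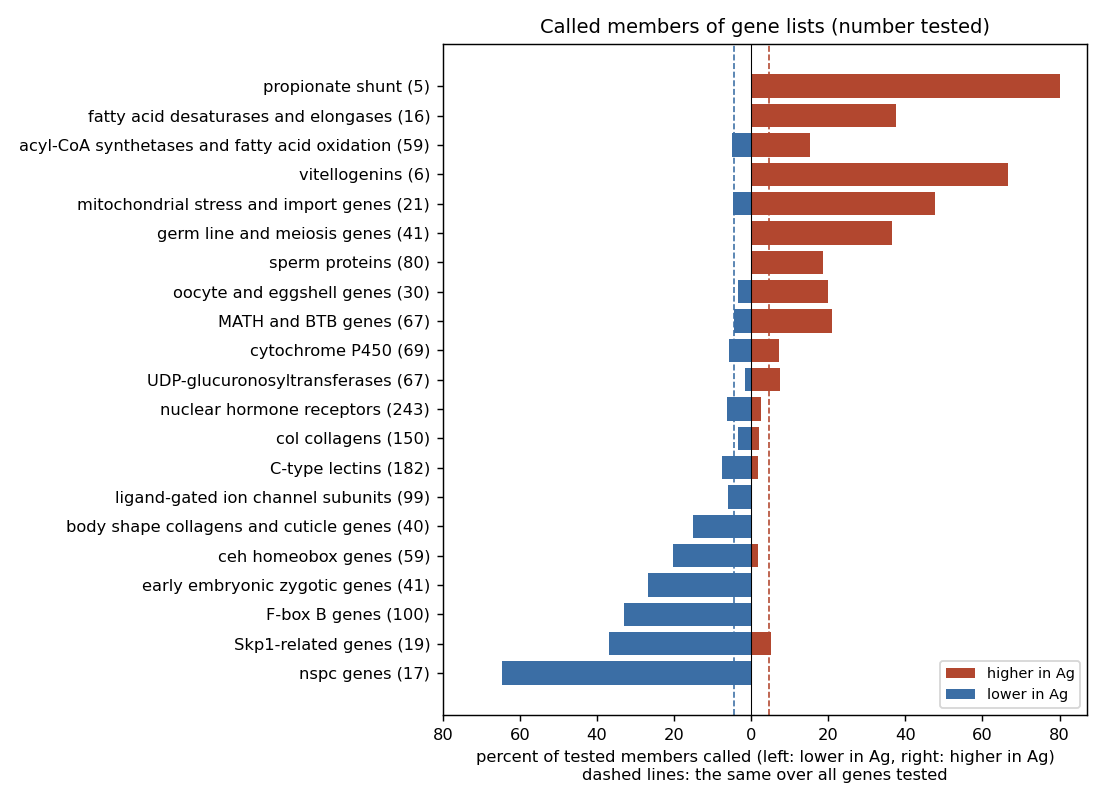
Percent of tested members called higher (red, right) and lower (blue, left) in Ag worms for 21 gene lists, with the number of tested members in parentheses and dashed lines at 4.62% and 4.35%, the same shares over all genes. The bars reach well past the lines for vitellogenins (4 of 6 higher), germ line and meiosis genes (15 of 41 higher), F-box B genes (33 of 100 lower) and nspc genes (11 of 17 lower).

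Called genes of the germ line were higher and called genes of the early embryo lower. Of 41 germ line and meiosis genes, 15 rose and none fell by edgeR, by DESeq2 or at an unadjusted p under 0.05, with a median log2 fold change of 0.51 beside -0.02 over all genes. glh-1, an RNA helicase of the germ granules, had 143.6, 170.7, 168.6, 247.3 and 202 CPM in Ag worms, against 103, 70.5, 81.4, 93.2 and 145 CPM in Control worms (1.89-fold higher, edgeR adjusted p = 0.0123). Control replicate 5 reached the lowest Ag sample. Across the list, the groups did not overlap in 4 of the 41 genes, beside 10.1% of all genes tested. The median germ line gene stood 0.41 log2 units above the Control mean in Control replicate 5, against 0.36 and 0.35 in Ag replicates 6 and 7. The other higher members included pgl-1 and pgl-3, further germ granule genes, gld-1, a translational regulator of oocyte development, and syp-1, syp-4, htp-1 and him-3, parts of the structures that hold paired chromosomes together in meiosis, with log2 fold changes of 0.57 to 0.71. Of 30 oocyte and eggshell genes 6 were higher, among them egg-2, egg-4 and egg-5 of the egg surface, and of 6 vitellogenin genes, which encode yolk proteins made in the intestine, vit-1, vit-3, vit-4 and vit-6 were higher (log2 fold changes 0.80, 0.92, 1.16 and 0.33). The groups overlapped for vit-3 and vit-4, which averaged 62.5 and 24.7 CPM in Control worms. vit-6, with the smallest of these changes, averaged 20400 CPM in Ag worms and 16280 CPM in Control worms. cpg-7 was the one lower member of the oocyte list (-0.78). The median oocyte list member stood at 0.37 in Control replicate 5 and at 0.10 and 0.24 in Ag replicates 6 and 7, as log2 units from the Control mean. These counts moved with single samples: the germ line count was 1, 1 and 3 without Control replicate 2, 3 or 4, 2 and 4 without Ag replicate 9 or 10, and 25 without Control replicate 5. The oocyte count ranged from 0 without Control replicate 2 or 3 to 16 without Control replicate 5, with 11 without Ag replicate 6, 1 without Ag replicate 9 or 10 or Control replicate 4, 2 without Ag replicate 7 and 3 without Ag replicate 8 or Control replicate 1, and the vitellogenin count fell to 1 without Control replicate 3 and to 2 without Control replicate 2 or 4 or Ag replicate 9.

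Sperm protein genes had a median log2 fold change of 0.97, with 15 of 80 higher and none lower by edgeR, by DESeq2 or at an unadjusted p under 0.05. spe-41, a calcium channel of sperm needed at fertilization, had 4.16, 5.102, 5.16, 5.05 and 3.35 CPM in Ag worms, against 2.04, 1.76, 1.47, 1.54 and 2.19 CPM in Control worms (2.54-fold higher, edgeR adjusted p = 0.00213). Ag replicate 8 stood apart, with the median sperm gene 1.98 log2 units above the Control mean, beside 0.10 in Ag replicate 6. The same median was 0.41 and 0.16 in Control replicates 2 and 4, above Ag replicate 6. The groups did not overlap in 6 of the 80 genes, spe-41 among them, beside 10.1% of all genes tested. Of the 6 sperm markers none was called by edgeR, while DESeq2 called 4 higher. The count of 15 was 6 without Ag replicate 8, 36 without Ag replicate 6, 3 without Ag replicate 7 or 9, 6 without Ag replicate 10, and 2 to 5 without any one Control sample. The major sperm protein (msp) genes among them are near-identical copies.

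Genes first transcribed in the early embryo were lower. Of 41 early zygotic genes 11 were lower and none higher by edgeR, by DESeq2 or at an unadjusted p under 0.05, and 40 of the 41 had a negative log2 fold change, with a median of -0.74. sdz-30, one of the genes first described as dependent on the maternal factor SKN-1, had 5.02, 4.59, 5.47, 7.39 and 10.2 CPM in Ag worms, against 14.2, 13.4, 14.0, 16.5 and 16.3 CPM in Control worms (2.29-fold lower, log2 fold change -1.19 ± 0.20, SE, edgeR adjusted p = 0.00512). The groups did not overlap, and Ag replicates 9 and 10 were nearest to Control, as they were for F-box B genes. his-24, a linker histone gene, averaged 399 ± 62.98 CPM in Ag worms and 702 ± 71.2 CPM in Control worms (SD, n = 5 each, edgeR adjusted p = 0.00209). The 11 zygotic genes fell to 6, 4 and 5 without Control replicate 2, 3 or 4 and to 6 without Ag replicate 7. The embryo markers summed to 3.15 to 3.48 CPM in Ag replicates 6, 7 and 8 and to 5.76 and 7.20 CPM in Ag replicates 9 and 10. These markers are themselves members of the early zygotic list, so they give no separate measure of embryo content. The part of embryo content in these decreases was not tested.

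The nspc genes, a family of small secreted proteins whose genes lie in separate clusters on chromosome X and were singled out after their values were seen, were lower in 11 of 17 cases, and all 17 had a negative log2 fold change. nspc-19 averaged 7.29 CPM in Ag worms and 20.4 CPM in Control worms and nspc-18 averaged 12.7 CPM in Ag worms and 37.2 CPM in Control worms (edgeR adjusted p = 0.00362 and 0.00665). Their order among the Ag samples was not that of the F-box B genes, since Ag replicates 9 and 8 were lowest, with medians of -1.53 and -1.26 log2 units, and Ag replicate 6 was highest at -0.48. The Control samples spread from -0.49 in replicate 3 to 0.46 in replicate 1, so the lowest Control sample was level with the highest Ag sample. Without Control replicate 2 or 4, and with the Kallisto estimates, 6, 6 and 5 were called. These copies resemble each other and may share reads.

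**Figure D4:**
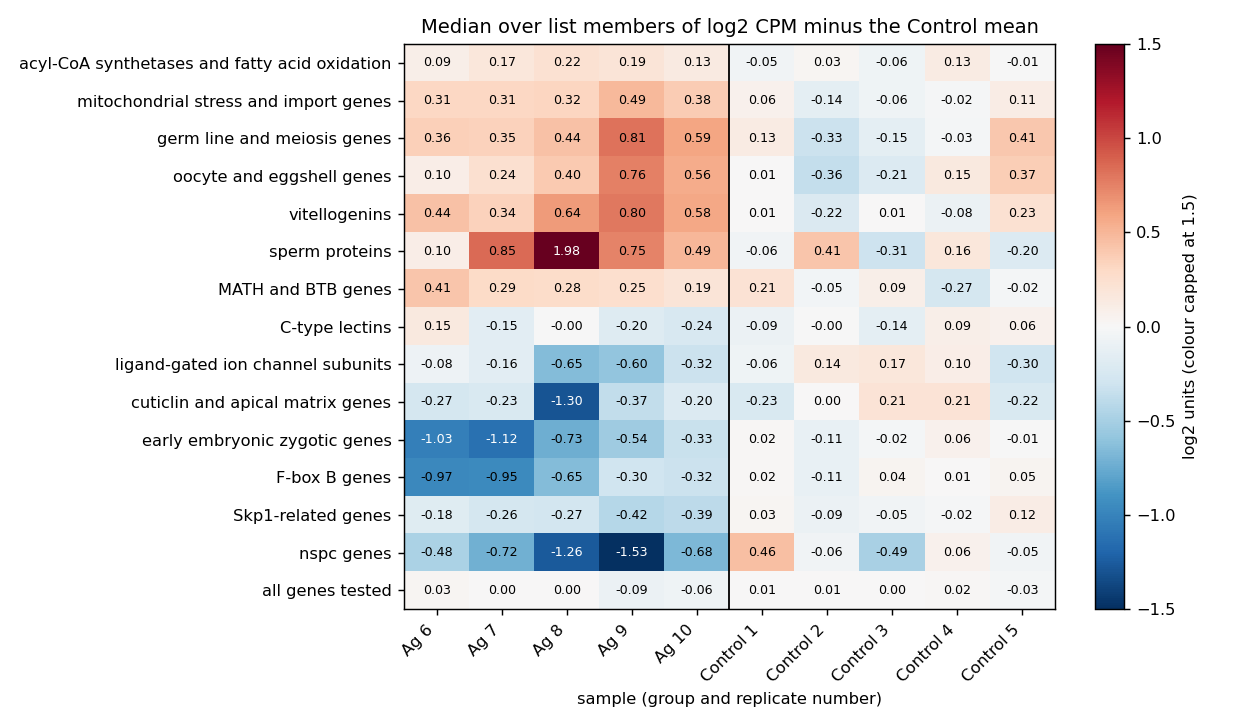
Heat map of 14 gene lists and of all genes tested (rows) in the 5 Ag samples (left of the line) and the 5 Control samples (right), where each cell gives the median over list members of log2 CPM minus the mean of the Control samples. Germ line, oocyte and vitellogenin rows are red in the Ag samples and also in Control replicate 5 (0.41, 0.37 and 0.23). Early zygotic and F-box B rows are bluest in Ag replicates 6 and 7, and Ag replicate 8 has the extreme sperm (1.98) and cuticlin (-1.30) values.

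In the lists of col collagens, body shape and cuticle genes, hedgehog-related and patched-related genes and ligand-gated ion channels, more genes were called lower than higher. Cuticlin and apical matrix genes went the same way, with 3 of 49 lower and none higher. Astacin metalloproteases went the other way, with nas-3 and nas-22 of 33 higher and none lower by edgeR. DESeq2 called 3 astacin genes lower, and 24 of the 33 had a negative log2 fold change. The shares called were 5.33% for col collagens, 15.0% for body shape and cuticle genes and 10.3% for hedgehog-related and patched-related genes. The share was 6.06% for ligand-gated ion channels, below the 8.98% of all genes. Of 150 col collagen genes 3 were higher and 5 lower, below the background and with a median log2 fold change of 0.02, and at most 7 and 8 whichever sample was left out. In the list of 40 body shape and cuticle genes 6 were lower, but 4 of these, dpy-21, dpy-22, dpy-23 and dpy-27, do not encode cuticle collagens: dpy-21 and dpy-27 act in dosage compensation, dpy-22 in the Mediator complex and dpy-23 in clathrin-mediated endocytosis. The RLE normalization called 3 of the 6, and the fits without Control replicate 2, 3 or 4 or Ag replicate 7, 8 or 9 called 1, 1, 1, 2, 3 and 3. Of 78 hedgehog-related and patched-related genes, which act in moulting and secretion, 6 were lower and 2 higher, with none of the 6 called without Control replicate 2, 3 or 4 and with 2 and 3 called without Ag replicate 9 or 10. Of 99 ligand-gated ion channel genes, 6 were lower and none higher by edgeR, by DESeq2 or at an unadjusted p under 0.05, led by glc-2 (log2 fold change -0.84), a subunit of a glutamate-gated chloride channel, and 90 of the 99 had a negative log2 fold change. The 6 became 0 without Control replicate 2, 3 or 4 or Ag replicate 9, 1, 2 and 3 without Ag replicate 10, 7 or 8, and 10 and 13 without Ag replicate 6 or Control replicate 5. Neuronal markers summed to 527 to 623 CPM in Ag worms and 613 to 755 CPM in Control worms, and the part of this in the channel values was not tested.

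Insulin-like peptides and transcription factors added single genes to the picture. ins-4 was 2.87-fold lower and ins-8 was 2.85-fold higher in Ag worms (edgeR adjusted p = 0.00862 and 0.0219, the second lost without Control replicate 3 or 4), and the other 31 insulin-like genes tested did not pass. zip-10, a bZIP factor, had 33, 31.4, 30.9, 17.9 and 17.7 CPM in Ag worms, against 7.12, 9.81, 11.1, 10.7 and 8.59 CPM in Control worms (2.77-fold higher, edgeR adjusted p = 0.00186). zip-10 overlaps skp-1 on the other strand. Of 243 nuclear hormone receptor genes 6 were higher and 15 lower, close to the background, with nhr-137 higher (log2 fold change 0.91) and nhr-164 lower (-2.03). Of 59 ceh homeobox genes, singled out afterwards, 12 were lower, among them ceh-13, a Hox gene, and ceh-20, its cofactor (-0.56 and -0.49), and 1, ceh-92, was higher (0.69). The 12 became 2, 3 and 2 without Control replicate 2, 3 or 4 and 6 and 7 without Ag replicate 7 or 9, and the 15 nuclear receptors became 2, 2, 3, 7 and 8 without Control replicate 2, 3 or 4 or Ag replicate 9 or 10.

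Called genes were not spread evenly over the chromosomes. On chromosome X 45 of 2616 genes were higher (1.72%) and 219 lower (8.37%), against 4.62% and 4.35% of all genes, and the median log2 fold change there was -0.25. On chromosome I 180 of 2857 genes were higher (6.30%) and 88 lower (3.08%), with a median of 0.10. The median chromosome X gene was 0.11, 0.15, 0.34, 0.31 and 0.20 log2 units below the Control mean in Ag replicates 6 to 10, while the Control samples lay between -0.11 and 0.07, and Control replicates 1 and 5 were the nearest to the Ag samples. Chromosome X is known to carry few genes active in the germ line, and the germ line list has 1 of its 41 tested members there. The germ line marker sums, given above as ranges, followed the chromosome X medians only in part. They were 1796 CPM in Ag replicate 8, where the X median was lowest, and 2518 and 2138 CPM in Ag replicates 9 and 10. In Control replicates 1, 4 and 5 they were 1237, 1401 and 1710 CPM, with X medians of -0.07, 0.05 and -0.11. These markers belong to the germ line and oocyte lists, and their part in the pattern was not tested. The count of 219 was 42, 40 and 48 without Control replicate 2, 3 or 4 and 89, 111 and 133 without Ag replicate 7, 9 or 10, and the 45 higher became 21, 19 and 24 without Control replicate 2, 3 or 4 and 29 without Ag replicate 7 or 9.

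Dosage compensation is the process by which hermaphrodites lower the output of both X chromosomes. Among 10 genes of that machinery, listed after the values were seen, sdc-2, sdc-3, dpy-21 and dpy-27 were lower and none was higher by edgeR, by DESeq2 or at an unadjusted p under 0.05. sdc-2, which directs the complex to the X, had 37.1, 42.8, 40.5, 50.4 and 51.1 CPM in Ag worms, against 67.8, 67.3, 77.3, 61.5 and 66.5 CPM in Control worms (log2 fold change -0.62 ± 0.11, SE, edgeR adjusted p = 0.00658). The groups were apart. The 4 became 1, 1 and 2 without Control replicate 2, 3 or 4, 2 without Ag replicate 7 or 8, and 2 with the RLE normalization.

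**Figure D5:**
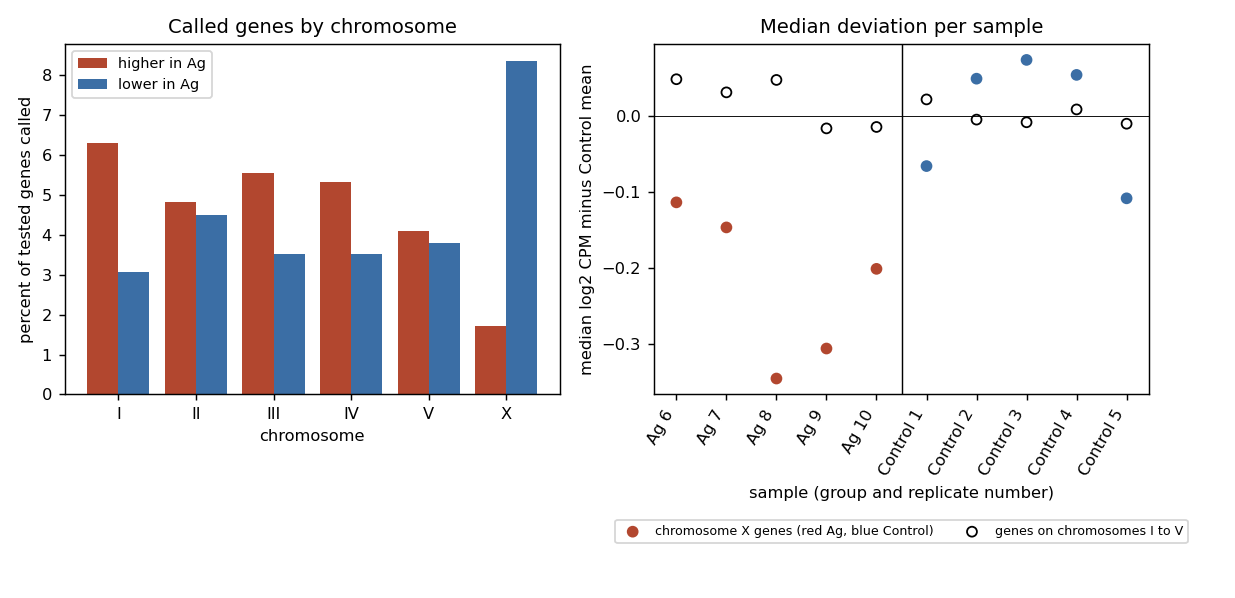
Left, percent of tested genes called higher (red) and lower (blue) in Ag worms on each chromosome. Right, the median over genes of log2 CPM minus the Control mean in each sample, Ag samples left of the line, filled circles for chromosome X genes (red Ag, blue Control) and open circles for chromosomes I to V. Chromosome X has 8.37% of its genes lower and 1.72% higher, and its median lies below 0 in all 5 Ag samples and in Control replicates 1 and 5.

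Some called genes lay next to each other. There were 30 runs of 3 or more called genes of one direction that follow each other among tested genes, 21 of them higher. The longest held 7 higher genes on chromosome V (from Y102A5C.2 to WBGene00014955, log2 fold changes 0.78 to 1.24), followed by 6 higher genes on chromosome IV (C34H4.2 to Y41D4B.15, 0.49 to 0.99), 5 lower genes on chromosome X (nspc-16 to nspc-20, -1.60 to -0.70) and 5 higher genes on chromosome I (Y48G1A.1 to R119.3, 0.45 to 0.86). The run of skr-13, skr-9, skr-8 and skr-12 on chromosome IV was the one of 4 lower genes, and all 4 of these genes were called whichever sample was left out, which was not so for every gene of the longer runs. Within the longest runs, Y102A5C.2 overlaps WBGene00013612, C34H4.1 overlaps WBGene00021520 and rnp-8 overlaps icpp-55, so neighbours there may share reads. By gene type, 52 of 987 pseudogenes were higher (5.27%) and 20 lower (2.03%), against 4.62% and 4.35% of all genes. Of the 17552 protein-coding genes 823 were higher (4.69%) and 804 lower (4.58%).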

How the data were processed

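RNA was sequenced from whole N2 worms in 15 samples, of which the Ag and Control samples are compared here. Per the study's methods, the authors trimmed reads with Trim Galore 0.4.5, aligned them to WBcel235 with HISAT2 2.1.0 and counted them per gene with HTSeq 0.9.1 (Ensembl release 91), and deposited the raw counts. The expected counts that the authors deposited from Kallisto were rounded and used as an alternative. Gene names, positions and types came from Ensembl release 115. The strand setting of the counting is not given in the sources used here.

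Genes with at least 10 counts in all were fitted with edgeR 4.0.16 (R 4.3.3, TMM, quasi-likelihood test, Benjamini-Hochberg adjustment). The script was tested on simulated data. Direct Ag against SiO2 differences came from a fit of all 15 samples. Genes named first were the 10 higher and 10 lower with the smallest p among called genes that changed at least 2-fold, averaged at least 1 CPM and had groups that did not overlap. In each list with at least 3 called members the up to 2 with the smallest p in each direction were named, as were the 4 longest runs, mtl-1 and mtl-2. Other genes were named after their values were seen, and so were 7 lists, as the text says. Lists were described by counts and medians, without a test, and the members and lists were chosen with earlier results of these data known. Symbols that begin like chemoreceptor names but denote other proteins, such as serpins, were taken out of the chemoreceptor list. Alternatives were other filters (3, 1, filterByExpr), RLE or library size scaling, DESeq2 1.42.0, the likelihood ratio test, Kallisto estimates, all 15 samples in the fit, and leaving out each sample.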

Additional observations from a re-analysis of the deposited data

Results flagged for a closer look

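In 15 of 216 sets of 5 samples that were checked, 1 sample lay far from the other 4, with a gap to its nearest neighbour above 0.71 of the whole range of the set, and chance gives this in about 1 in 20 sets. Ag replicate 8 was that sample in 9 of them. Its mtl-2 level was 315 CPM, with the other Ag samples between 172 and 192 CPM, and its ftn-1 level was 61.4 CPM, with the others between 35.6 and 40.5 CPM. The median member of a list, as log2 CPM minus the Control mean, stood at 0.066 for short-chain dehydrogenases in Ag replicate 8, at 0.21 for superoxide and peroxide enzymes, at 0.49 for lysozymes and at 0.36 for galectins, each the highest of the Ag samples. It stood at -0.50 for body shape collagens and cuticle genes, at -1.30 for cuticlin and apical matrix genes and at -0.70 for ceh homeobox genes, each the lowest of the Ag samples.

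Among the Control samples, replicate 4 was the highest for F18E3.12 (0.981 CPM, others up to 0.552), for clec-72 (36.97 CPM, others up to 23.1) and for fat-5 (13.8 CPM, others up to 9.67). Control replicate 1 was the highest for F09C12.2 at 4.03 CPM, with the others up to 2.60. The median list member was lowest in Control replicate 3 for transsulfuration and sulfide genes, at -0.10, and in Control replicate 2 for F-box B genes, at -0.11.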

How the results depend on the processing

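The count of genes called was 1705 with edgeR's quasi-likelihood test (878 higher, 827 lower), 3154 with DESeq2 (1781 higher, 1373 lower) and 2944 with the likelihood ratio test (1473 higher, 1471 lower), and it stayed within 1.5 times of 1705 under the other filters, scalings, the Kallisto estimates and the fit of all 15 samples. Leaving out 1 sample gave 368 (without Control replicate 3) to 2192 (without Control replicate 5) called genes, 172 to 1220 higher and 196 to 972 lower. Of the 368, all were among the 1705. For Ag against SiO2 the count was 672, with 1636 by DESeq2, 1415 by the likelihood ratio test, 389 with those 2 groups alone, and 369 to 1960 without 1 sample. None of the 148 genes followed through the alternatives turned its direction, 69 of 135 genes named by rule were called in all 10 fits that leave out a sample, and of their 1214 values under the other settings 24 lost the call. The cause of these differences was not tested. Of 4805 genes under 1 CPM, 110 were called, and the part of depth in this was not tested. No paired analysis was possible because the replicate numbers run on from 1 group to the next, so none occurs in both.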

Other observations

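Of 531 chemoreceptor genes tested 3 were higher and 12 lower (2.82% called, against a background of 8.98%), with a median log2 fold change of -0.31, and srg-31 was higher at 11.9 CPM in Ag worms and 4.00 CPM in Control worms (edgeR adjusted p = 0.00362). Of 93 neuropeptide genes 1 was higher and 5 lower, among them nlp-21 (log2 fold change -0.64) and flp-18 (-0.71), both known as peptides released by neurons, with calls lost without Control replicate 2 for nlp-21 and in 8 of 10 omissions for flp-18. Of 61 solute carrier genes 5 were higher and 4 lower (14.8% called), led by the amino acid transporter gene aat-7 (1.32) and by slc-36.5 (-0.63). Whichever sample was left out, at most 13 chemoreceptor, 10 neuropeptide and 7 solute carrier genes were lower. Of the 21 V-ATPase subunit genes, which acidify lysosomes, none was called by edgeR, with 1 higher by DESeq2 and 2 higher and 1 lower at an unadjusted p under 0.05.

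The called gene with the largest log2 fold change, C07G1.7 on chromosome IV, was picked out after its values were seen. C07G1.7 had 3.40, 1.53, 2.42, 8.09 and 1.25 CPM in Ag worms, against 0.0996, 0.110, 0, 0 and 0 CPM in Control worms. The Ag samples varied among themselves, and no fold change is given because 3 Control samples were at 0.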
